A study of Mus musculus with 4 samples.

Results

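The Myc, Max and Mxd network covers 10 genes of the 15097 that a mouse oligonucleotide array measured through probes with 1 gene symbol, and 10 of its 22702 probes, 1 for each of Myc, Mycn, Mycl, Max, Mxi1, Mxd1, Mxd3, Mxd4, Mnt and Mlx. The probes were taken by the gene symbol that the platform annotation gives them, whatever their values and whether or not every array had one. Each array set metanephric mesenchyme (MM), the mesenchyme that gives rise to the nephrons of the permanent kidney, directly against intermediate mesoderm (IM), the mesoderm from which the urogenital organs form. Both tissues were dissected from mouse embryos at 10.5 days post coitum (dpc), both sexes together, and their RNA was amplified before labelling; the labels name no mutation or treatment and no strain. There were 4 such arrays and no common reference sample. Arrays 1 and 2 carried MM in channel 1, and arrays 3 and 4 carried it in channel 2, where the labels swap the nouns of both tissue names and were read as the same pair of tissues. The labels do not say whether arrays share an RNA extract or how many embryos were pooled. Any p-value here thus reflects no more than spread among these 4 arrays, and that spread may be technical. Every value is a log2 ratio, and a positive value means higher in MM, which is the likely direction from the labels, although they do not name the dye used in each channel.

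Myc, Mycn and Mycl are transcription factors of the basic helix-loop-helix leucine zipper (bHLHZ) class that bind DNA only as a dimer with Max. The dimers bind the sequence CACGTG, the E-box, and activate genes of ribosome assembly, nucleotide synthesis and cell growth. The Mxd proteins, Mxi1 and Mnt also pair with Max at the same sequence but recruit the Sin3 and histone deacetylase corepressors, and Mlx is the Max-like partner of a parallel branch of the network. In the developing kidney Mycn is known for sustaining the growth of the early mesenchyme.

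Among the activators, Mycn and Myc were higher in MM on every array, by 2.43-fold and 1.79-fold, while Mycl was 1.23-fold higher in IM. Max, the shared partner, was 1.97-fold higher in MM, with 1 array well below the others. Of the 5 repressors Mxi1, Mxd1, Mxd3, Mxd4 and Mnt, Mxd3 was not tested and none of the others was called in both fits used here. Among all tested probes 13.6% were called higher and 14.4% lower in both fits. Mlx was near equal in the tissues. The first fit, limma with a tissue term and a term for channel orientation, asks whether the mean of the 4 log2 ratios differs from 0, with p-values adjusted over the 14184 probes that had a value on every array and a threshold of 0.05. The second drops the orientation term, so that disagreement between the orientations counts as error.

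Of the 9 network probes tested, 4 were called higher in MM in the first fit (Mycn, Myc, Max and Mnt), where 23.8% of all tested probes were called higher, and 1 was called lower (Mycl), where 38.1% of all were. Without the orientation term 3 were called higher (Mycn, Myc and Max) against 13.6% of all tested probes, and 1 lower (Mycl) against 14.4%. Every probe called without the term was also called with it, so 13.6% and 14.4% are the shares of all tested probes called higher and lower in both fits. The log2 ratio was above 0 on all 4 arrays for 3 members, against 21.0% of all tested probes, and below 0 on all 4 for 1 member, against 28.4%. The median mean log2 ratio of the tested members was 0.15 and that of all tested probes was -0.08. Calls were thus common on these arrays, and the size of a member's ratio is given below beside the share of all tested probes that exceeded it.

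**Figure D1:**
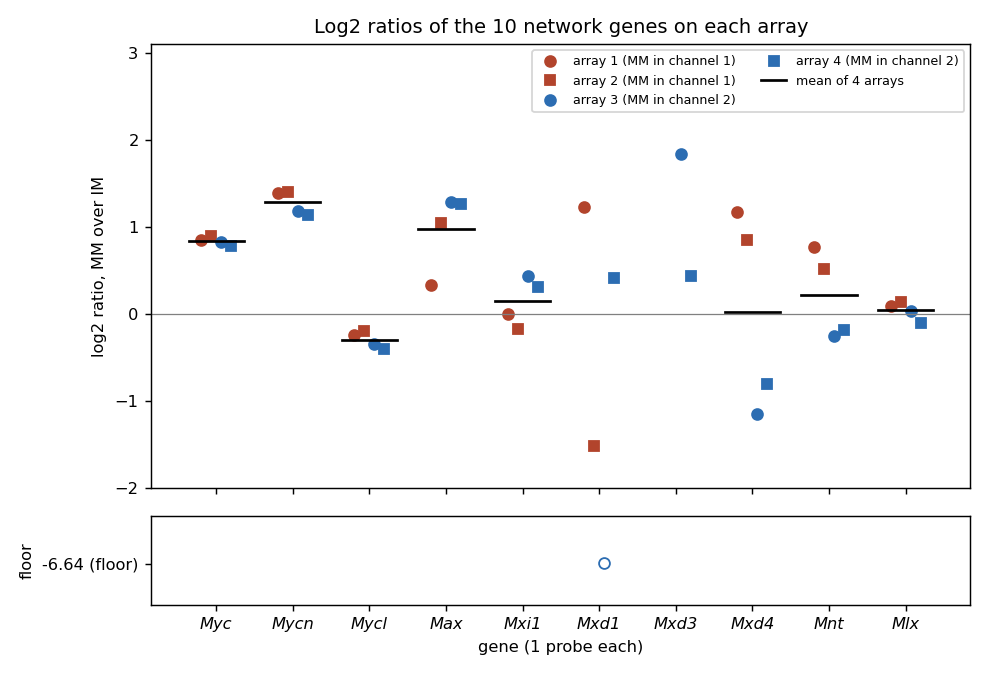
Log2 ratio, MM over IM, of the 10 network probes on each of the 4 arrays, with the mean as a black bar for probes measured above the floor on all of them; the lower panel holds the value of Mxd1 at the floor. Myc, Mycn and Max lie above 0 on every array and Mycl below 0, while Mxd4 and Mnt are above 0 on arrays 1 and 2 (red) and below 0 on arrays 3 and 4 (blue).

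Because the dimers of this network bind the E-box, the promoters of the members were searched for it. RefSeq promoter windows on the mouse build GRCm38.p6, 250 bases before to 10 after each annotated start, were held for 9 members (11 windows, of which Mxi1 has several starts); Myc had no entry. The windows of the members called in both fits that had an entry are shown 5′ to 3′ on the gene's strand. Capitals mark CACGTG (its own reverse complement), GGGCGG or its reverse complement CCGCCC, the letters of the GC box, and TATAAA on either strand, the letters of the TATA box. No motif overlapped another in these 3 windows.
Mycn (chr12:12941827-12942086, minus strand): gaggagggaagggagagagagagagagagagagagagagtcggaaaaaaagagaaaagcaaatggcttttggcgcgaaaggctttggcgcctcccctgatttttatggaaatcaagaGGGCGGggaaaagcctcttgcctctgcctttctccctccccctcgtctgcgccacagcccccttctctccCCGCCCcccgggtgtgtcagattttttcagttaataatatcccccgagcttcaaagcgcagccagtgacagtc
Mycl (chr4:122995681-122995940, plus strand): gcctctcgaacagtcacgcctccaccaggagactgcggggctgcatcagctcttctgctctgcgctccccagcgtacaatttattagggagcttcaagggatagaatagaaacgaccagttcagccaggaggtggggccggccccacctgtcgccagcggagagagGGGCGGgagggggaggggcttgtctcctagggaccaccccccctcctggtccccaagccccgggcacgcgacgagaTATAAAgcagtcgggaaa
Max (chr12:76962239-76962498, minus strand): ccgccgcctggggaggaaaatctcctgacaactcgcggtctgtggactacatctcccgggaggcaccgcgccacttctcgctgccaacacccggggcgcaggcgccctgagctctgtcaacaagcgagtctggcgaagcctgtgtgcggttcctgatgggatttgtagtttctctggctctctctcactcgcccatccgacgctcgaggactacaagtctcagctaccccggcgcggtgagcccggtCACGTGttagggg

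The Mycn window holds 2 copies of the GC box letters and the Mycl window 1, with the TATA box letters close to the start of Mycl. The Max window holds neither, and its E-box letters begin 3 bases before the annotated start and run across it. Of the 9 members with an entry, 4 had CACGTG (Max, Mlx, Mnt and Mxd4), 7 had GGGCGG and 1 had TATAAA. Over all genes in the RefSeq table the shares were 7.22%, 36.1% and 14.7%, and over its 32851 windows they were 6.34%, 33.4% and 12.7%. The E-boxes of the repressors Mnt and Mxd4 and of Mlx are shown with 20 bases on each side, with CACGTG in capitals. A match to these letters is a description of the reference genome and says nothing of binding in these tissues.
Mnt (chr11:74830781-74830826, plus strand, 123 bases before the start): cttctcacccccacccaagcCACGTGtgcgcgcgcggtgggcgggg
Mxd4 (chr5:34187904-34187949, minus strand, 219 bases before the start): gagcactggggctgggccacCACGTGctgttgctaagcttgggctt
Mlx (chr11:101087230-101087275, plus strand, 40 bases before the start): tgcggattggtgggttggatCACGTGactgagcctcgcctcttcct

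Mycn, the N-Myc activator, had log2 ratios of 1.39, 1.40, 1.18 and 1.14 on arrays 1 to 4. All 4 lay well above 0, with arrays 3 and 4 a little below arrays 1 and 2. The mean was 1.28 ± 0.14 (SD, n = 4), a 2.43-fold higher level in MM. The 95% interval from limma was 1.20 to 1.36 (adjusted p = 0.000369, and 0.00268 without the orientation term). Like the intervals given below, it comes from the fit with the orientation term. It thus leaves out the gap between the orientations, and the values of all 4 arrays lay outside it. Only 3.17% of all tested probes had a larger mean. The gap between the orientations was itself past the threshold (mean 1.40 on arrays 1 and 2 and 1.16 on arrays 3 and 4, limma adjusted p = 0.0413), as it was for 44.6% of all tested probes, and both means were of the same sign.

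Myc, the c-Myc activator, had log2 ratios of 0.85, 0.89, 0.82 and 0.78, with the smallest SD of the 9 tested members. The orientations lay close together, with means of 0.87 on arrays 1 and 2 and 0.80 on arrays 3 and 4, and no array stood apart. The mean was 0.84 ± 0.05 (SD, n = 4), 1.79-fold higher in MM, with a limma 95% interval of 0.76 to 0.92 (adjusted p = 0.000734, and 0.00256 without the orientation term). A larger mean was found for 6.81% of all tested probes and a smaller SD for 5.56%.

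Mycl, the L-Myc activator, went the other way, with log2 ratios of -0.24, -0.20, -0.35 and -0.40. All 4 lay below 0 and none was as far from 0 as any value of Myc. The mean was -0.30 ± 0.10 (SD, n = 4), 1.23-fold higher in IM, with a limma 95% interval of -0.38 to -0.21 (adjusted p = 0.00427, and 0.0306 without the orientation term). This is a small difference on these arrays, where the mean of 74.8% of tested probes was larger, that is, less far below 0 or above it. With the orientation term its call held whichever array was left out. Without that term it was lost whichever array was left out (limma adjusted p = 0.0849 to 0.128).

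Differences between members of 1 array compare their MM over IM ratios and not their levels. The log2 ratio of Mycn exceeded that of Mycl by 1.63, 1.60, 1.53 and 1.55 (mean 1.58 ± 0.05 SD, n = 4). The ratio of Myc exceeded that of Mycl by 1.09, 1.09, 1.17 and 1.19 (1.13 ± 0.05 SD, n = 4). Both gaps kept 1 direction on every array and varied less than the ratios of Mycn or Mycl alone (SD 0.14 and 0.10). The gap between Myc and Mycl did not vary less than the ratio of Myc alone (SD 0.05). Mycn exceeded Myc by 0.54, 0.51, 0.36 and 0.36 (0.44 ± 0.10 SD, n = 4), the same direction on all 4 arrays. With 4 arrays an exact two-sided sign-flip permutation test of a single value cannot go below p = 0.125, which is what it gave for Mycn, Myc, Mycl and Max.

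Max, the obligate partner of all 3 activators and also a partner of the Mxd repressors, had log2 ratios of 0.33, 1.04, 1.29 and 1.26. Array 1 stood below the other arrays, and all 4 were above 0. The mean was 0.98 ± 0.45 (SD, n = 4), 1.97-fold higher in MM, with a limma 95% interval of 0.55 to 1.40 (adjusted p = 0.011, and 0.0348 without the orientation term). A larger mean was found for 5.44% of tested probes, but 71.8% had a smaller SD, so its size is less certain than those of Myc and Mycn. Left without array 3 or array 4, the first fit no longer called Max (limma adjusted p = 0.0669 and 0.0655), and the second fit lost the call without array 2, 3 or 4 (limma adjusted p = 0.125 to 0.137). The gap between Max and Mycn had no fixed direction (Mycn minus Max was 1.07, 0.36, -0.10 and -0.12).

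Mlx, the Max-like partner of the glucose-sensing bHLHZ factors, had log2 ratios of 0.09, 0.14, 0.03 and -0.11. The values straddled 0 and the mean was 0.04 ± 0.11 (SD, n = 4), with a limma 95% interval of -0.08 to 0.15 (adjusted p = 0.458). Max exceeded Mlx by 0.24, 0.90, 1.26 and 1.37, a positive gap on every array whose size varied (0.94 ± 0.51 SD, n = 4).

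The repressors that pair with Max gave the least settled readings. Mnt, the most widely expressed of them, had log2 ratios of 0.77, 0.51, -0.25 and -0.18. It was above 0 with MM in channel 1 and below 0 with MM in channel 2, so the orientations did not overlap and had opposite signs. Its mean of 0.22 ± 0.51 (SD, n = 4) was called higher in the first fit (limma 95% interval 0.04 to 0.39, adjusted p = 0.0487) and not without the orientation term (adjusted p = 0.555), and it is given here as not settled. Mxd4, a repressor linked to cells leaving the cycle, showed the widest such split, with log2 ratios of 1.17, 0.85, -1.15 and -0.81. The orientation means were 1.01 and -0.98, a gap of 1.99, and the overall mean of 0.02 ± 1.16 (SD, n = 4) was not called (limma 95% interval -0.27 to 0.30, adjusted p = 0.9).

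Mxi1, the repressor also called Mxd2, had log2 ratios of 0.00, -0.17, 0.44 and 0.31. Here arrays 3 and 4 were the higher pair, and the mean of 0.15 ± 0.28 (SD, n = 4) missed the threshold (limma 95% interval -0.00 to 0.29, adjusted p = 0.0802). With each array centred on its median, Mxi1 was called higher (0.21, limma adjusted p = 0.0416), which made 5 members called higher. No other alternative called Mxi1. Mxd1, induced as many cell types differentiate, had log2 ratios of 1.23, -1.52 and 0.41 on arrays 1, 2 and 4, and on array 3 it was listed at -6.64, the log2 of 0.01, which is the lowest value in the table and is read as a floor. Its values disagreed in sign within the same orientation, and no direction can be read from them (limma adjusted p = 0.404). Mxd3, a repressor found in dividing cells, had values on arrays 3 and 4 alone, 1.84 and 0.44, and was not tested; 142 probes had values on that pair of arrays only and 4250 on arrays 1 and 2 only. The orientation coefficient was past the threshold for 4 of the 9 tested members (Mycn, Mxi1, Mxd4 and Mnt), against the 44.6% of all tested probes given above.

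**Figure D2:**
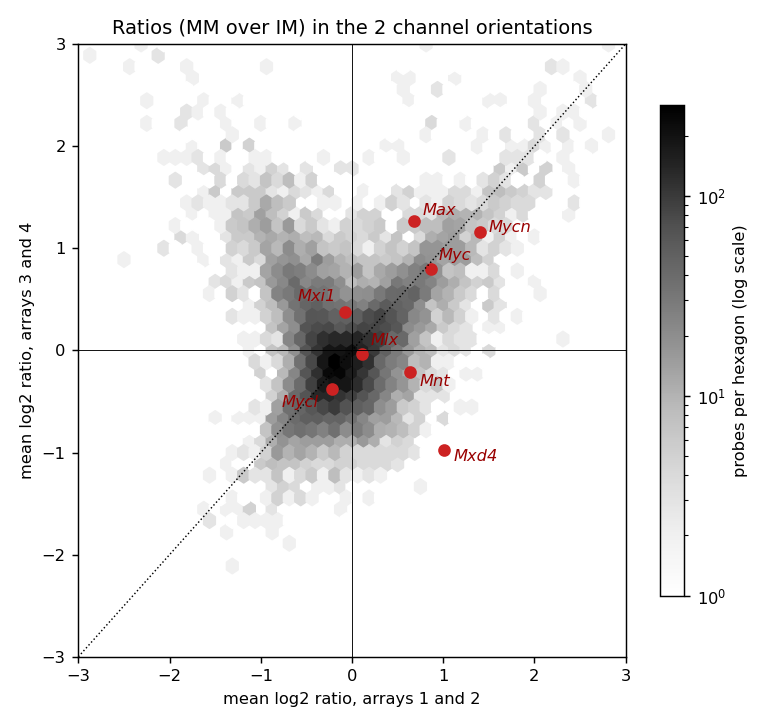
Mean log2 ratio, MM over IM, on arrays 1 and 2 (horizontal axis) against that on arrays 3 and 4 (vertical axis), with the tested probes without a floor value as grey hexagons on a log colour scale and the network members as red points; the dotted line marks equal means. Myc and Mycn lie near the line, Max lies above it, and Mxd4 (1.01 and -0.98) and Mnt lie in the quadrant where the orientations have opposite signs.

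Array pairs of the same orientation resembled each other (Pearson r across probes above the floor 0.836 for arrays 1 and 2 and 0.912 for arrays 3 and 4), while pairs of opposite orientation gave r of 0.113 to 0.274. Arrays 3 and 4 held fewer values (15812 and 16242) than arrays 1 and 2 (21509 and 21599) and more of them at the floor (1672 and 1805 against 16 and 8). Spot intensities were not analysed here, and how far each spot stood above background is unknown. As a check of the tissue labels, 4 of 8 tested probes of a metanephric mesenchyme marker list were higher in MM in both fits and none was lower. The shares of all tested probes were 13.6% and 14.4%. Eya1, Hoxd11, Cited1 and Pax2 of this list were not called. Six2, a transcription factor of nephron progenitors, and Gdnf, the ligand that induces ureteric bud outgrowth, had means of 3.00 ± 0.63 and 1.92 ± 0.13 (SD, n = 4). Of 5 tested markers of gonadal ridge and adrenal primordium, 4 were lower in MM in both fits. Among them was Wt1 (-1.57 ± 0.02 SD, n = 4). Wt1 could also have been listed for metanephric mesenchyme, but it was counted in this list alone. That no probe of the metanephric mesenchyme list was lower thus depends on this choice. All 4 tested neural probes were lower in MM and all 4 tested liver and gut endoderm probes were higher (median 1.51), each in both fits. All 6 muscle and somite probes were lower in the first fit and 3 of them in both; Myod1, lower in the first fit alone, was at the floor on arrays 3 and 4 and read 1.00 and -0.23 on arrays 1 and 2. Of 6 erythroid probes 3 were called higher and 1 lower (0 and 1 in both fits), of 5 endothelial probes 2 higher and 2 lower (2 and 1 in both fits), and of 5 nephric duct probes 1 higher and 3 lower (1 and 2 in both fits). The part of other cell types in the ratios of the network was not tested, and in dissected tissue fewer cells of a type and less RNA per cell cannot be told apart.

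Myc, Mycn and Mycl were next set beside the probes of other genes with the most similar 4 ratios, by Euclidean distance over 10868 probes with 1 gene symbol and no floor value. The distance covers only 4 arrays, and nearness says nothing of function. For Myc the nearest was Dek, a chromatin protein of dividing cells, at a distance of 0.077 (0.86, 0.86, 0.89 and 0.78), then Msl2 at 0.082 and Hmgn2, a nucleosome-binding protein, at 0.087. For Mycn they were Ttc4 at 0.081 (1.42, 1.39, 1.11 and 1.18), Rcl1, a ribosomal RNA processing factor, at 0.085, and Tubg1, the gamma-tubulin of the centrosome, at 0.127. Rcl1 and Ttc4 showed the same step down from arrays 1 and 2 to arrays 3 and 4 as Mycn. The choice by distance favours such a match, so it is no separate result. For Mycl they were Chrac1, a chromatin remodelling subunit, at 0.042, the proteasome activator subunit Psme1 at 0.05, and Smn1, the survival motor neuron gene, at 0.052, all with means between -0.32 and -0.30.

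Genes known from other work as activated by Myc were for the most part called higher or not called. The list holds 66 genes, of which 57 were on the array and 55 probes were tested. In the first fit 30 probes (54.5%) were called higher in MM, 9 (16.4%) lower and 16 neither, against the 23.8% and 38.1% of all tested probes. In both fits 24 were higher and 2 lower, against 13.6% and 14.4% of all tested probes. Of the 9 lower probes 3 (Polr1b, Tyms and Pkm) were at the floor on arrays 3 and 4 and above 0 on arrays 1 and 2. The median mean log2 ratio of the list was 0.27, with 0.40 on arrays 1 and 2 and 0.24 on arrays 3 and 4, against -0.08, -0.08 and -0.04 for all tested probes.

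Within this list, nucleolar and ribosome assembly genes had 11 of 18 probes higher and 2 lower in the first fit (7 and 1 in both fits), with a median mean of 0.36. Nop58, a core protein of the particles that methylate ribosomal RNA, had log2 ratios of 1.29, 1.51, 1.47 and 1.44, a 2.69-fold higher level in MM (1.43 ± 0.10 SD, n = 4, limma adjusted p = 0.000805). Wdr43, a factor of early ribosomal RNA processing, had a mean of 1.12 ± 0.08, and Riox2, a nucleolar oxygenase also called Mina53, one of 0.81 ± 0.06. Both lay above 0 on every array. Npm1, the abundant nucleolar chaperone nucleophosmin, was the probe called lower in both fits. It was 1.43-fold higher in IM with ratios of -0.50, -0.62, -0.44 and -0.51 (-0.52 ± 0.08 SD, n = 4, limma adjusted p = 0.00252). The other lower probe, Polr1b, was at the floor on arrays 3 and 4.

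Nucleotide and polyamine synthesis had 7 of 13 probes higher and 1 lower (6 and 0 in both fits), with a median mean of 0.23. Mthfd1, an enzyme of one-carbon metabolism that feeds purine synthesis, had ratios of 1.16, 1.21, 1.19 and 1.16, nearly equal on all arrays (1.18 ± 0.02 SD, n = 4, 2.26-fold, limma adjusted p = 0.000455). The purine enzymes Paics and Ppat had means of 0.87 ± 0.27 and 0.73 ± 0.34, with the orientations apart in opposite senses. The other probe of Ppat was also called higher in both fits, with a smaller mean of 0.24 ± 0.09. Among translation factors 3 of 4 probes were called higher and 1 lower (3 and 0 in both fits). Eif3b, a scaffold subunit of the initiation factor that binds the small ribosomal subunit, had ratios of 2.51, 2.46, 2.91 and 2.11, 5.64-fold higher in MM (2.50 ± 0.33 SD, n = 4, limma adjusted p = 0.00203). The RNA helicase Eif4a1 had a mean of 0.95 ± 0.29 and Eif5a, the hypusine-bearing elongation factor, one of 0.44 ± 0.19.

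Glycolysis and nutrient uptake had 3 of 7 probes higher and 2 lower (3 and 1 in both fits). The median mean was 0.05, and 0.34 without the floored probe of Pkm, the pyruvate kinase, which was 1 of those 2 lower. The amino acid transporter chain Slc3a2 had a mean of 0.94 ± 0.14, the hexokinase Hk2 one of 0.81 ± 0.15 and the lactate dehydrogenase Ldha one of 0.63 ± 0.26, each called higher in both fits. The other probe of Hk2 read 0.65, 0.36 and -1.08 on arrays 1 to 3 and was not tested. For Tfrc, the transferrin receptor, the probes differed: 1 was called lower (-0.25 ± 0.06) and the other was not called (0.05). The first fit lost the lower call whichever array was left out (limma adjusted p = 0.051 to 0.0679). Cell cycle targets had 4 of 9 probes higher and 3 lower (3 and 0 in both fits), and mitochondrial targets had 2 of 4 higher and none lower (2 and 0 in both fits). Those higher in both fits were Cdc25a, the phosphatase that starts S phase (1.12 ± 0.53), cyclin Ccne1 (0.40 ± 0.09), Id2, an inhibitor of bHLH factors (0.29 ± 0.08), the chaperonin Hspd1 (0.72 ± 0.14) and prohibitin Phb2 (0.54 ± 0.06). Id2 was not called by the first fit without array 3 or array 4 (limma adjusted p = 0.0611 and 0.0528).

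**Figure D3:**
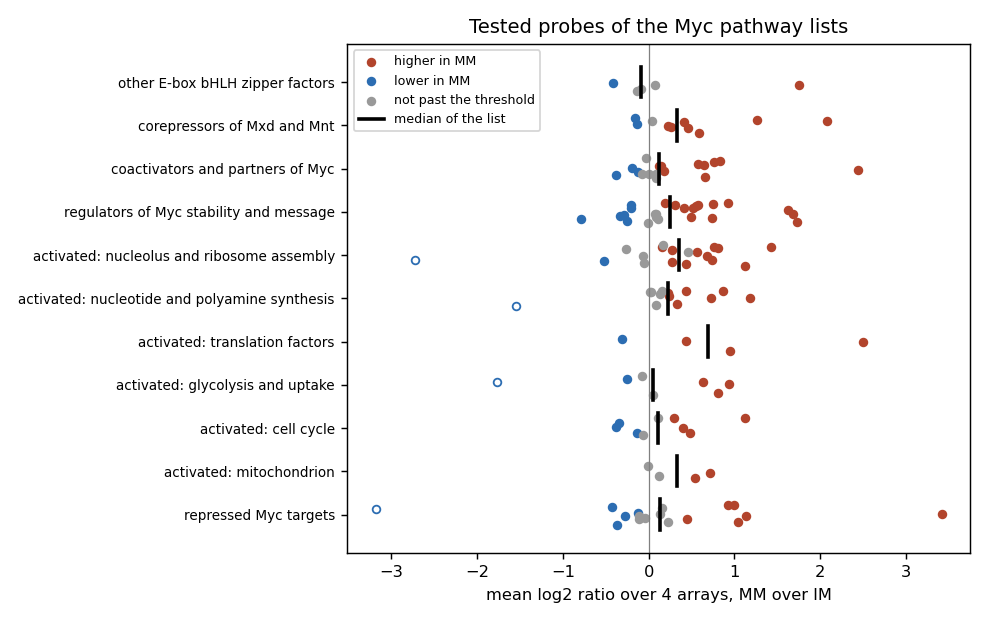
Mean log2 ratio over 4 arrays, MM over IM, of each tested probe of the Myc pathway lists, coloured by its call in the first fit, with open circles for probes with a value at the floor and a black bar for the median of each list. The medians lie from -0.09 for other E-box bHLHZ factors to 0.70 for translation factors, and every list but the mitochondrial one has probes called in both directions.

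Proliferation markers were also read, since Myc targets and dividing cells share genes. Of 9 tested probes 5 (55.6%) were called higher and 1 (11.1%) lower in the first fit, against 23.8% and 38.1% of all tested probes. The lower one was Mki67 (-0.28 ± 0.23 SD, n = 4). In both fits 2 were higher and 0 lower, against 13.6% and 14.4% of all tested probes. The 2 higher in both fits were Mcm7, a subunit of the replicative helicase (2.54 ± 0.08 SD, n = 4), and cyclin Ccna2 (0.30 ± 0.10 SD, n = 4). The median mean was 0.19, beside 0.27 for the activated Myc targets. The part of cell division in the target ratios was not tested.

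E-box letters were present in the promoter window of 11 of the 57 activated targets with a RefSeq entry (19.3%, against 7.22% of all genes in the table), in 4 of 6 translation factors and in 1 of 18 nucleolar genes. Of the 23 activated target genes higher in both fits, all of which had an entry, 5 held CACGTG: Eif4a1, Eif5a, Hspd1, Ldha and Paics. Cdk4, a cyclin-dependent kinase of G1 (0.79, 0.66, 0.21 and 0.27), and Pes1, a ribosome assembly factor (0.21, 0.46, 0.14 and 0.27), also held CACGTG and were called higher in the first fit only. Eif4e, the cap-binding initiation factor (-0.08, -0.09, -0.57 and -0.50), and Tyms held it and were called lower in the first fit only, Tyms with both of arrays 3 and 4 at the floor. The E-boxes of the 5 targets higher in both fits are shown with 20 bases on each side and CACGTG in capitals.
Eif4a1 (chr11:69672587-69672632, minus strand): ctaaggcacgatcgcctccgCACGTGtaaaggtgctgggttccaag
Eif5a, first of 2 (chr11:69920783-69920828, minus strand): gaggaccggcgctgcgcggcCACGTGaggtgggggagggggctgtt
Eif5a, the other (chr11:69921435-69921480, minus strand): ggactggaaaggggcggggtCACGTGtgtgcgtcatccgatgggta
Hspd1 (chr1:55088298-55088343, minus strand): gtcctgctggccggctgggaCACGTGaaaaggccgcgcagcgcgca
Ldha, first of 2 (chr7:46845639-46845684, plus strand): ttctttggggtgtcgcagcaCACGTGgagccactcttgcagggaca
Ldha, the other (chr7:46845736-46845781, plus strand): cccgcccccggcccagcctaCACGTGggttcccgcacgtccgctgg
Paics (chr5:76951079-76951124, plus strand): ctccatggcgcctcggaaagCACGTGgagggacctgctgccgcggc

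Of 17 tested probes for targets that Myc is known to repress, 6 (35.3%) were called higher and 5 (29.4%) lower, against 23.8% and 38.1% of all tested probes. In both fits 5 were higher and 1 lower, and the median mean was 0.13 against -0.08 for all tested probes. Txnip, which binds thioredoxin and limits glucose uptake, had the largest ratio, 4.94, 4.00, 2.13 and 2.61 on the 4 arrays (3.42 ± 1.28 SD, n = 4, 10.7-fold higher in MM, limma adjusted p = 0.00189). It was high on every array, with the orientations apart in size. Btg1, an antiproliferative gene, had ratios of 1.03, 1.05, 1.04 and 1.05 (1.04 ± 0.01 SD, n = 4), and the matrix protein Thbs1 had a mean of 1.14 ± 0.35 (SD, n = 4), not called by the first fit without array 1 or array 2 (limma adjusted p = 0.0932 and 0.0891). Ndrg1, a stress-induced gene, was lower in both fits at 1 probe (-0.43 ± 0.05), while its other probe had values above 0 on 2 arrays and the floor on another.

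The cofactors of the network were read in the same way. Of 10 tested corepressor probes 7 (70.0%) were called higher and 2 (20.0%) lower, against 23.8% and 38.1% of all tested probes. In both fits 5 were higher and 0 lower, and the median mean was 0.33. Hdac1, a histone deacetylase of the Sin3 complex, had ratios of 1.93, 1.97, 2.29 and 2.13, 4.22-fold higher in MM (2.08 ± 0.16 SD, n = 4, limma adjusted p = 0.000361). Hdac2, the other deacetylase on this list, had ratios of 0.04, 0.24, -0.01 and -0.12 and was not called (limma adjusted p = 0.578). Rbbp7, a histone-binding subunit of the same complex, had ratios of 1.29, 1.22, 1.30 and 1.24 (1.26 ± 0.04 SD, n = 4). The scaffold Sin3b had a mean of 0.59 ± 0.15 at 1 probe and -0.13 at the other, which was called lower in the first fit, so its direction depends on the probe.

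Of 17 tested probes for coactivators and partners of Myc, 9 (52.9%) were called higher and 3 (17.6%) lower, against the same 23.8% and 38.1%, with 4 and 2 in both fits. Bin1, a Myc-interacting adaptor, had ratios of 3.83, 2.98, 1.27 and 1.69 (2.44 ± 1.18 SD, n = 4), high on every array. The chromatin subunit Actl6a and the acetyltransferase Kat2a had means of 0.83 ± 0.18 and 0.65 ± 0.09. Mycbp, a Myc-binding protein, and Trrap, the scaffold of Myc-recruited acetyltransferases, were lower, with means of -0.38 ± 0.10 and -0.19 ± 0.05. The first fit did not call Trrap without array 3 or 4 (limma adjusted p = 0.067 and 0.0596), nor Actl6a without array 2 (0.0539). Kat2a and Trrap, which work in the same complexes, therefore had ratios of opposite sign.

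Among regulators of Myc stability and message, 13 of 24 tested probes (54.2%) were called higher and 6 (25.0%) lower, against the same 23.8% and 38.1%, with 12 and 3 in both fits. The higher ones were led by RNA-binding proteins: Lin28a, which blocks let-7 maturation (1.73 ± 0.58), Igf2bp3, which stabilises messages including that of Myc (1.68 ± 0.19), and Hnrnpk (1.62 ± 0.35). Each was above 1 on every array. The lower ones were the ubiquitin ligase Trim32, 1.73-fold higher in IM (-0.79 ± 0.13 SD, n = 4), the kinase Pim2 (-0.33 ± 0.09) and the ligase Huwe1, which targets Myc proteins (-0.29 ± 0.01). For Stub1 and Gsk3b the probes of the gene differed in sign.

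**Figure D4:**
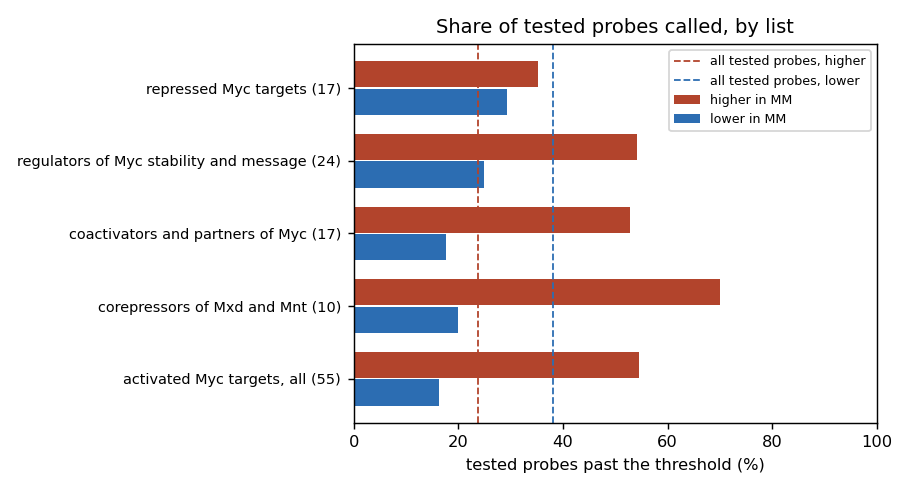
Percent of tested probes called higher (red) and lower (blue) in MM in the first fit for 5 Myc pathway lists, with the number of probes in brackets and dashed lines at the shares of all tested probes (23.8% and 38.1%). The share called higher runs from 35.3% for repressed Myc targets to 70.0% for corepressors, on 10 to 55 probes.

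Of 11 probes on the array for other bHLHZ factors that bind E-boxes, 5 could be tested. In the first fit 1 (20.0%) was called higher and 1 (20.0%) lower, against 23.8% and 38.1% of all tested probes. In both fits 0 were higher and 1 lower, against 13.6% and 14.4%. The higher one was Tfeb, a factor of lysosome genes, with ratios of 0.26, 1.28, 2.95 and 2.52, above 0 on every array and larger on arrays 3 and 4. Its mean was 1.75 ± 1.22 (SD, n = 4), 3.37-fold higher in MM (limma adjusted p = 0.00785, and 0.087 without the orientation term). The lower one was a probe of Mitf, the melanocyte and eye factor (-0.41 ± 0.14 SD, n = 4). Its other probes were not tested.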

How the data were processed

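The deposited values are log2 ratios that the authors computed for each spot. Per the labels' protocols, Imagene quantified the spots, signal and control of arrays 3 and 4 were exchanged for the dye swap, and a lowess curve over 20.0% of the data corrected the control value, with 10 as its minimum. How background and weak spots were handled is not given in the sources used here. Amplification and lowess can compress or shift ratios, and a small control value can inflate them. No sign was changed, no value was normalised again, and values at -6.64 (a ratio of 0.01) were kept as a floor.

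The 14184 probes with 4 values were modelled in limma (version 3.58.1, R 4.3.3) on tissue and channel orientation, and Benjamini-Hochberg adjustment over all of them set the threshold at 0.05. A fit without the orientation term stands beside it. With the term, the residual comes only from arrays of the same orientation. The code was tested on simulated data that held only the spread within each orientation and no difference between extracts. The number of arrays limits the precision.

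Symbols came from the platform annotation, checked against RefSeq names: 17252 probes had 1 symbol, 156 several and 5294 none. Those with several went unnamed, and probes of a gene were kept apart. The members and gene lists were chosen with earlier results of these data known. Named genes were all members; per list, up to 3 probes in each direction with the largest mean among those called in both fits with no floor value; the 3 nearest probes of Myc, Mycn and Mycl; and markers. Tyms, Polr1b, Pkm, Tfeb, Cdk4, Pes1, Eif4e, Hdac2, Stub1, Gsk3b and second probes were named after their values were seen. Alternatives covered the orientation term, floor values, centring, scaling, the minimum number of values, array weights, averaging within orientation and leaving out each array. Leaving out each array without the orientation term was chosen after seeing the data.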

Additional observations from a re-analysis of the deposited data

Results flagged for a closer look

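The 9 members with 4 values (Mxd1 with its floor value) and the 38 named list probes were checked on their 4 arrays for a value far from the others, by Dixon's criterion for 4 values at 95%, which sets the gap to the nearest value against the range. Of 47 probes 2 were picked out. The criterion treats the 4 values as 1 group, while these arrays form 2 orientation pairs. Its rate of 1 in 20 by chance therefore need not hold here, and the count was not compared with it. Kat2a, the acetyltransferase, read 0.53 on array 1 against 0.69 to 0.70 on the other arrays, a gap of 0.911 of its range. Thbs1, the matrix protein, read 1.67 on array 3 against 0.92 to 0.99 on the other arrays, a gap of 0.903. Both stayed above 0 on every array.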

How the results depend on the processing

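Averaging the arrays of each orientation leaves 2 values per probe and 1 residual degree of freedom, and limma then called 0 members higher and 0 lower (2 of 9 tested members and 1526 of all tested probes had an unadjusted p under 0.05), and 0 activated Myc targets in either direction. Leaving out each array gave 2 to 4 members higher and 1 lower with the orientation term, and 2 to 3 higher and 0 lower in limma without it, where 4 of the 9 tested members had an unadjusted p under 0.05 each time. Activated targets called lower were 5 to 7 when each array was left out and 2 without the orientation term. Mean ratios ranged from -3.39 to 0.14 for Mxd1 and from -0.37 to 0.40 for Mxd4 when each array was left out. Mnt was -0.21 on arrays 3 and 4 alone. Myc and Mycn kept their calls under every alternative with a test but averaging; on arrays 1 and 2 or 3 and 4 alone, which give no test, they stayed above 0. Of 418 alternative values of the 38 named list probes, 49 lost the call, 38 of them by averaging, and 0 reversed. Over all tested probes the calls were 2513 higher and 3295 lower without array 3 and 2480 and 3368 without array 4, against 3371 and 5408. The causes were not tested. No paired analysis was possible because the 4 arrays form 1 group of direct ratios.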
